A study of Homo sapiens with 4 samples.

Results

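The genes described here are 10 genes of natriuretic peptide and cyclic GMP signalling, taken from the count table by their symbols out of 39634 entries with values. They are the peptide genes NPPB and NPPC, the receptor genes NPR1, NPR2 and NPR3, the phosphodiesterase genes PDE5A, PDE6A and PDE6D, and the kinase genes PRKG1 and PRKG2. NPR3 and PDE6A were picked because they rose in these libraries, so their differences between the groups are described without a test. The other 8 were taken for their place in the pathway. Polyadenylated RNA came from BEAS-2B, an immortalised line from human bronchial epithelium, kept in the serum-free medium N2B27. There were 2 control libraries with a control short hairpin RNA and 2 libraries labelled Fer knockdown, with a short hairpin RNA against Fer, called the knockdown-labelled libraries here. No label says whether the replicates of a group were separate cultures, so the p-values cover only the spread between these libraries, which may be technical.

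Natriuretic peptides are small hormones that bind receptors on the cell surface. NPR1 and NPR2 are guanylate cyclases that make cyclic GMP when a peptide binds, NPR1 mainly for the atrial and B-type peptides and NPR2 for the C-type peptide. NPR3 has no cyclase domain; it takes up bound peptide for breakdown and is known to couple to inhibitory G proteins. Cyclic GMP acts through the kinases PRKG1 and PRKG2 and through ion channels, and phosphodiesterases such as PDE5A hydrolyse it. PDE6A is a catalytic subunit of the rod photoreceptor enzyme. PDE6D, named as a subunit of the same enzyme, carries prenylated proteins between membranes in many cell types.

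Library totals ran from 21422976 to 25169713 counts. FER, the cytoplasmic tyrosine kinase that the hairpin is named for, had 334 and 459 counts in control and 404 and 535 counts in the knockdown-labelled libraries, at 18.8 ± 3.42 and 19.0 ± 1.66 CPM (SD, n = 2 each; CPM is the count scaled to library size). The log2 fold change was 0.02 ± 0.17 (SE, adjusted p = 0.976 in edgeR's quasi-likelihood test), so the FER mRNA level goes against the label. Every direction given here compares libraries by their label and not by a measured loss of FER. Among the 12 bronchial and basal epithelial markers, KRT8 and KRT18, keratins of simple epithelium, had at least 34748 and 17167 counts in every library. Of the basal cell markers, KRT5, KRT14 and TP63 had at most 12, 2 and 8. The basal keratin KRT17 had 560 and 476 counts in control and 920 and 1161 in the knockdown-labelled libraries. The 12 summed to 3121 to 3934 CPM in control and 3263 to 3268 CPM in the other group. Of the 9 tested, 0 were called by edgeR, beside 0.646% of all tested genes. An unadjusted p under 0.05 was found for 4 of the 9, beside 17.7% of all tested genes. KRT17 and CDH1 were higher, and KRT7 and SFN were lower. The smallest p of the 9 was that of KRT17, at 0.77 ± 0.16 on the log2 scale (SE, adjusted p = 0.0552, edgeR). Genes of the mitochondrial chromosome took 16.9% and 19.4% of the counts in control, against 9.62% and 9.37% in the knockdown-labelled libraries. Their part in the results below was not tested, beyond a fit without those genes.

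Of the 10 genes, 8 had enough counts to be tested. NPPB, for the B-type peptide, had 0 counts in all 4 libraries, which allows up to 0.113 to 0.147 CPM (3 counts per library, counting error only). PRKG1 had 0 and 2 counts in control and 0 and 1 in the knockdown-labelled libraries, too few for a fold change. The tests compared the groups gene by gene over all 15336 genes that passed the filter on low counts, with p-values adjusted over all of them by the Benjamini-Hochberg method.

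**Figure D1:**
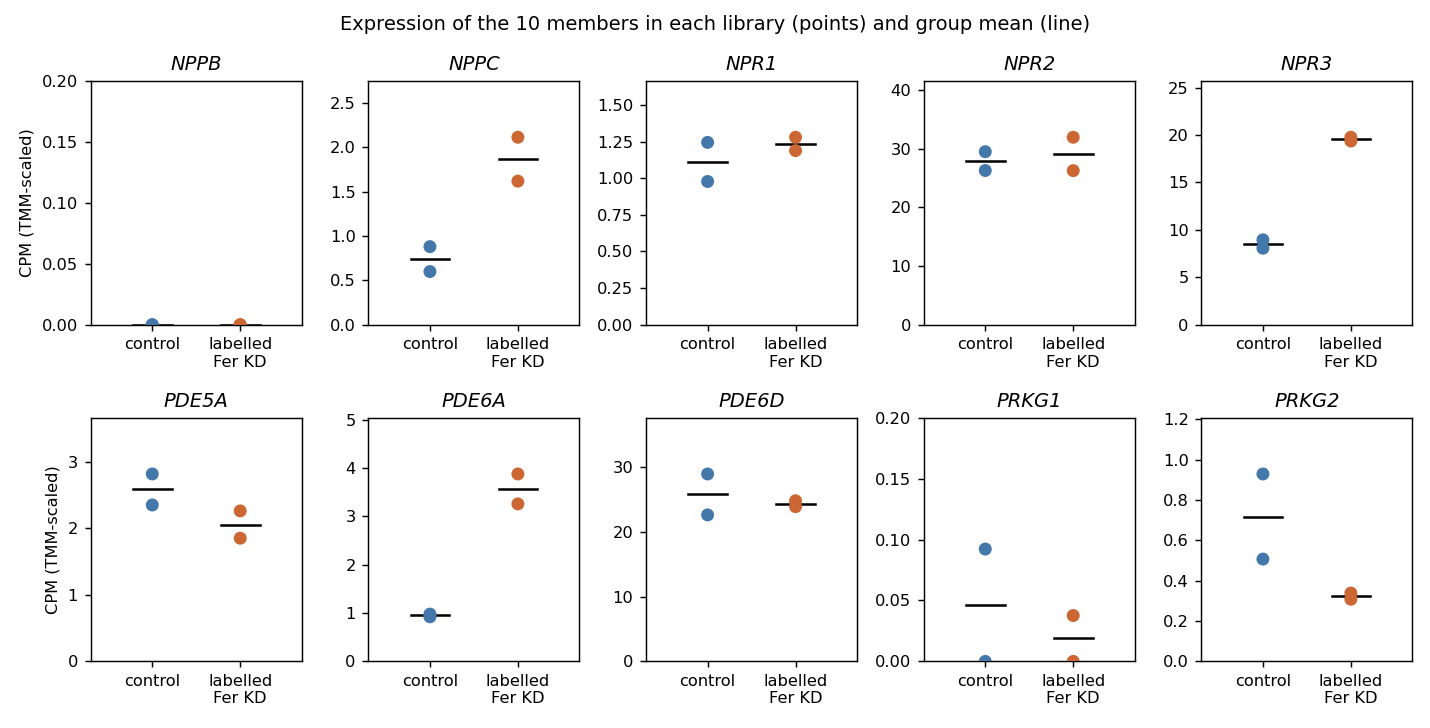
Each panel shows 1 gene in TMM-scaled CPM (y axis starting at 0, with its own scale), with 1 point per library and a line at the mean of the 2 libraries of a group; "Fer KD" stands for Fer knockdown. NPR3, PDE6A and NPPC lie higher in both knockdown-labelled libraries than in both controls, PDE5A and PRKG2 lie lower, and NPPB is at 0 in all 4.

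NPR3 (ENSG00000113389, chromosome 5), the clearance receptor, had 183 and 175 counts in control and 440 and 525 in the knockdown-labelled libraries. On the TMM scale these were 8.95 and 8.07 CPM against 19.4 and 19.8 CPM. The groups did not overlap, as in 49.2% of all tested genes, and the libraries of each group lay close together. The means were 8.51 ± 0.622 and 19.6 ± 0.277 CPM (SD, n = 2 each), a fold of 2.30, or 1.20 ± 0.16 (SE) on the log2 scale. In RNA of a whole culture, more cells with NPR3 and more NPR3 RNA per cell cannot be told apart. Of the 15336 genes, 174 had a larger fold increase than NPR3, but NPR3 was picked for its rise, so nothing is read from that rank. No annotated exon of another gene overlaps NPR3 in GENCODE release 29. With the mitochondrial genes left out, the log2 fold change was 1.19. The closest expressed gene on one side, SUB1, which encodes a transcriptional coactivator and ends 85.0 kb away in that release, was at -0.21 (adjusted p = 0.397). TARS, a threonyl-tRNA synthetase gene and the closest coding gene on the other side, lies 649.0 kb away and was at -0.45 (adjusted p = 0.120, edgeR). LINC02160, nearer on that side at 438.0 kb, had at most 2 counts in a library.

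The fold changes of the signalling receptors lay near 0 on the log2 scale. NPR2 (ENSG00000159899, chromosome 9), which makes cyclic GMP on binding the C-type peptide, had 537 and 639 counts in control and 725 and 697 in the knockdown-labelled libraries. This was 26.3 and 29.5 CPM against 31.9 and 26.2 CPM, with overlapping groups. The log2 fold change was 0.06 ± 0.16 (SE; 95% interval -0.29 to 0.41; adjusted p = 0.886, edgeR). Exons of SPAG8, on the opposite strand, overlap 8.51% of the exonic bases of NPR2, and reads of the overlap cannot be told apart without strand. NPR1 (chromosome 1), the receptor for the atrial and B-type peptides, had 20 and 27 counts in control and 27 and 34 in the knockdown-labelled libraries. Its log2 fold change was 0.15 ± 0.40 (SE, adjusted p = 0.889, edgeR). The 95% interval of -0.74 to 1.04 is wide at this depth, and a change of NPR1 within it is not excluded.

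Levels of different genes were compared per length, as CPM per kilobase of the gene length in the deposited table. NPR2 was the most abundant of the receptors in each library, at 5.93 to 7.21 CPM per kilobase. NPR3 stood at 0.897 and 0.809 in control and at 1.94 and 1.98 in the knockdown-labelled libraries, and NPR1 at 0.198 to 0.259. NPR3 therefore made up 12.8% and 10.5% of the summed per-length level of the receptors in control, and 20.7% and 24.3% in the knockdown-labelled libraries. NPR2 went from 84.4% and 86.3% to 76.8% and 72.6%, and NPR1 held 2.56% to 3.26% in the 4 libraries. The transcript forms in use are unknown, and another length would move these shares.

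**Figure D2:**
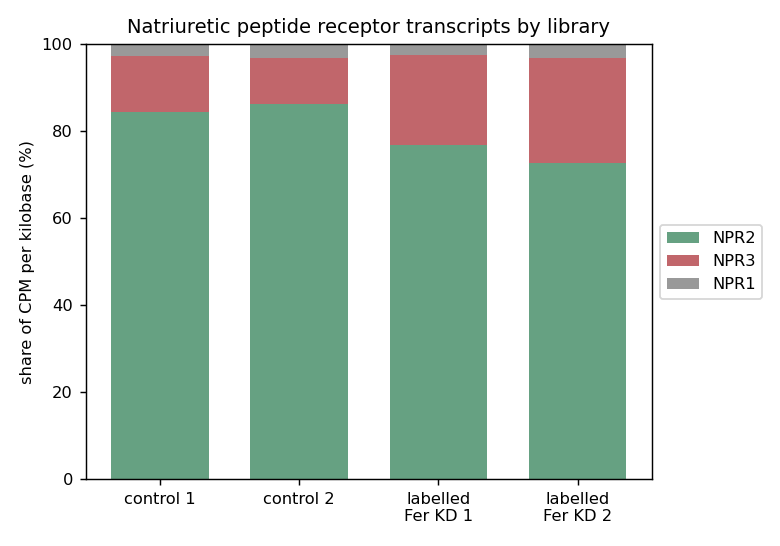
Stacked bars give the share (%, y axis from 0 to 100) of each natriuretic peptide receptor gene in their summed CPM per kilobase, with 1 bar per library; "labelled Fer KD" marks the knockdown-labelled libraries. NPR2 takes the largest part of every bar, and the part of NPR3 is 12.8% and 10.5% in control against 20.7% and 24.3% in the other libraries.

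NPPC (ENSG00000163273, chromosome 2), the gene of the C-type peptide, had 18 and 13 counts in control and 48 and 43 in the knockdown-labelled libraries. On the TMM scale these were 0.88 and 0.60 CPM against 2.11 and 1.62 CPM, and the groups did not overlap. The log2 fold change was 1.33 ± 0.42 (SE; 95% interval 0.39 to 2.26), but it missed the threshold after adjustment (adjusted p = 0.151, edgeR). The call depends on the libraries and on the filter. The adjusted p was 0.0413 (edgeR) with no filter on low counts, where 4.14% of all tested genes were called, against 0.646% at first. With other scalings, a replicate block or no mitochondrial genes it ran from 0.0684 to 0.152. With each library left out, the log2 fold change ran from 1.05 to 1.62. PDE6D lies on the same chromosome with 135.5 kb between the gene ends, and was at -0.08 on the log2 scale. NPPA, for the atrial peptide, was at -0.81 (adjusted p = 0.431), with 12 to 28 counts per library, and 25.5% of its exonic bases overlap CLCN6.

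The sequences before the transcription starts are shown for the genes with higher values, NPR3, PDE6A and NPPC, and for NPR2, whose value did not differ beyond its spread. They come from RefSeq on GRCh38.p14, which matched 9 of the 10 genes, and run 5′ to 3′ on the gene's strand over the 250 bases before the start (243 for NPPC, without bases that lie in an annotated exon). Capitals mark matches on either strand to any of the searched motifs: TGACGTCA, the cyclic AMP response element, TGANTCA, the AP-1 site, GGGCGG, the GC box, and TATAAA, the TATA box.
NPR3, chr5:32690622-32690871, plus strand: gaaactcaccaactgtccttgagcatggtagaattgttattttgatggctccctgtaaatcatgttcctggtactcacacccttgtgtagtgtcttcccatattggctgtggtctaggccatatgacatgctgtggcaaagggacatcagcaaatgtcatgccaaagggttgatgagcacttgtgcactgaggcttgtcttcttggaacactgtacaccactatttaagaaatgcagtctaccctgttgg
PDE6A, chr5:149944794-149945043, minus strand: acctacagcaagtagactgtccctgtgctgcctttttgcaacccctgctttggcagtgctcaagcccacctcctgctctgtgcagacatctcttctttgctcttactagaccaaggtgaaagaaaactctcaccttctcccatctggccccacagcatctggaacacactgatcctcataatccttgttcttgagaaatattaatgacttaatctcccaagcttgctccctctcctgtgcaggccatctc
NPPC, chr2:231926404-231926646, minus strand: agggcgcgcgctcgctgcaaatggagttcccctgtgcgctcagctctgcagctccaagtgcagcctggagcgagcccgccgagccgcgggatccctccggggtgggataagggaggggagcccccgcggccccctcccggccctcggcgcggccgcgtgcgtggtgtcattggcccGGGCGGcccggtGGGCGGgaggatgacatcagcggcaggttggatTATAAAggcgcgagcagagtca
NPR2, chr9:35791341-35791590, plus strand: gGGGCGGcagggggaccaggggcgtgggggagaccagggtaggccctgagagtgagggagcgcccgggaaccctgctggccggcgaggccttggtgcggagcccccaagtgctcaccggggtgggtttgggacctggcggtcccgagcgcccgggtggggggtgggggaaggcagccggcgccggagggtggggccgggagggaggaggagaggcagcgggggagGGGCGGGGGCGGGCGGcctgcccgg

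None of the motifs was found in the windows of NPR3 and PDE6A, which also held 0 CpG dinucleotides each, at 45.6% and 49.2% GC. The median over all 35116 RefSeq windows was 11 CpG and 58.0% GC. The NPPC window held 28 CpG at 72.0% GC over its 250 bases, 2 GC boxes and 1 TATA box whose first base lies 29 bases before the start. The NPR2 window held 4 GC boxes, 3 of them next to each other or overlapping, and 21 CpG. Among all windows, 42.6% held a GC box, 10.7% a TATA box, 6.57% an AP-1 site and 1.65% a full cyclic AMP response element. RefSeq lists another NPR3 start, whose window lies in annotated exons, so its letters are not shown; it held 16 CpG at 64.0% GC and none of the motifs. Which start these cells used was not measured. These are matches of letters in a window and not binding sites.

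PDE6A (ENSG00000132915, chromosome 5), the rod catalytic subunit, had 20 and 20 counts in control and 74 and 103 in the knockdown-labelled libraries. This was 0.978 and 0.922 CPM against 3.26 and 3.88 CPM, so the groups did not overlap, as in 49.2% of all tested genes. The means were 0.950 ± 0.0395 and 3.57 ± 0.438 CPM (SD, n = 2 each), a fold of 3.75, or 1.91 ± 0.32 (SE) on the log2 scale. The level was low all the same: 89.6% of the tested genes had a higher level per kilobase over the 4 libraries. Of the 15336 tested genes, 33 had a larger fold increase, but PDE6A was picked for its rise, so nothing is read from that rank. None of its exonic bases overlaps an exon of another gene, and the processed pseudogene AC008427.1, which lies within PDE6A outside its exons on the same strand, had at most 3 counts in a library. PPARGC1B, a transcriptional coactivator gene that ends 2.9 kb beyond the 3′ end of PDE6A on the opposite strand, was at 0.00 (adjusted p = 0.999), from 30 and 50 counts to 35 and 59. SLC26A2, a sulfate transporter gene 15.9 kb away on the other side, was at 0.31 (adjusted p = 0.434).

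Of the other rod markers, some were near 0 and some were expressed. The remaining rod catalytic subunit, PDE6B, had 7 and 1 counts in control and 10 and 11 in the knockdown-labelled libraries. SAG, which encodes arrestin, had at most 2 counts in a library. GNAT1, which encodes transducin, had 3 to 6. ROM1, which encodes a structural protein of the rod outer segment, had 203 to 357 counts, at 14.2 and 9.36 CPM in control and 11.6 and 13.4 CPM in the knockdown-labelled libraries, the largest part of the summed level of these markers. NRL, a rod transcription factor gene, had 13 to 39 counts. PDE6G, the inhibitory subunit that binds the catalytic pair, was expressed at 8.90 and 6.87 CPM in control and 6.83 and 6.51 CPM in the knockdown-labelled libraries (log2 fold change -0.24, adjusted p = 0.595). The 10 rod markers, in which PDE6A is not included, summed to 18.2 to 26.1 CPM in control and 21.6 to 23.4 CPM in the knockdown-labelled libraries. PDE6B, PDE6G, CNGA1 and CNGB1 belong both to these markers and to the pathway lists. Of these markers 4 were tested and 0 passed by edgeR, with 0 at an unadjusted p under 0.05. Over all tested genes, 0.646% passed and 17.7% had such an unadjusted p.

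PDE6D (ENSG00000156973, chromosome 2), the carrier of prenylated proteins, had the highest level per kilobase of the 10 genes in every library, at 8.0 to 10.2. It had 591 and 490 counts in control and 542 and 658 in the knockdown-labelled libraries, and the groups overlapped. The log2 fold change was -0.08 ± 0.16 (SE, 95% interval -0.44 to 0.28, adjusted p = 0.843, edgeR). COPS7B on the opposite strand overlaps 2.53% of its exonic bases. PDE5A (chromosome 4), which hydrolyses cyclic GMP and is the target of sildenafil, had 48 and 61 counts in control and 42 and 60 in the knockdown-labelled libraries. At 2.35 and 2.81 against 1.85 and 2.26 CPM its groups did not overlap, but the log2 fold change of -0.33 ± 0.30 (SE, adjusted p = 0.623, edgeR) had a 95% interval of -1.0 to 0.35.

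**Figure D3:**
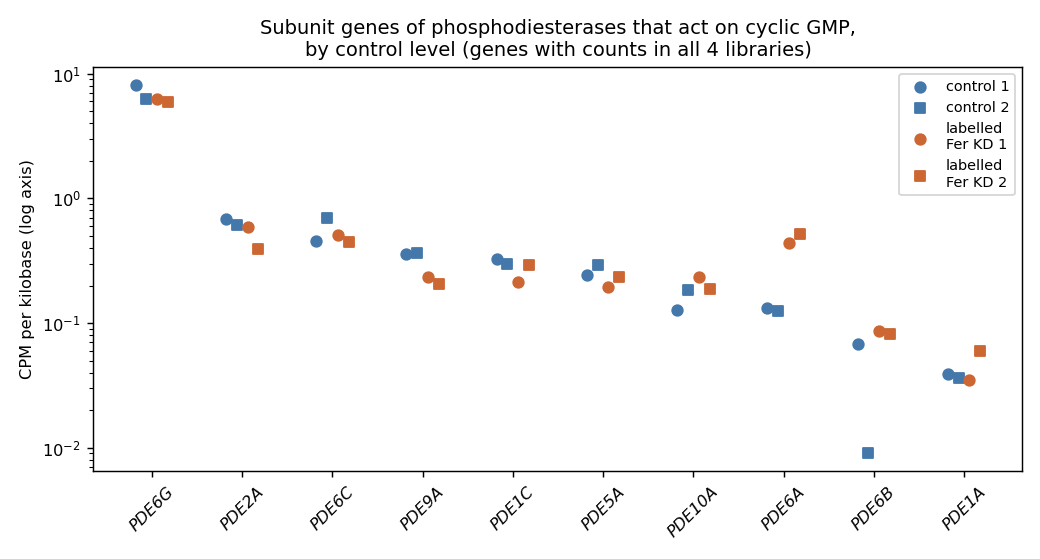
CPM per kilobase (log axis) in each of the 4 libraries is plotted for the subunit genes of phosphodiesterases that act on cyclic GMP and had counts in every library, ordered by mean control level. PDE6A is the 8th in control, at 0.132 and 0.124, and lies at 0.439 and 0.523 in the knockdown-labelled libraries, near PDE2A and PDE6C.

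Among the 15 subunit genes of phosphodiesterases that act on cyclic GMP, PDE6A stood 8th by mean control level and 3rd by the mean of the knockdown-labelled libraries. There it was at 0.481 CPM per kilobase, next to PDE2A at 0.491 and PDE6C at 0.480, whose libraries overlap with those of PDE6A. Over the 13 genes without the inhibitory subunits PDE6G and PDE6H, PDE6A held 5.35% and 4.70% of the summed per-length level in control and 17.3% and 21.4% in the knockdown-labelled libraries. Of the 15, 8 were tested. Against 0.646% of all tested genes, 0 of the 7 tested besides PDE6A passed in edgeR's test over all genes. The smallest p among these was that of PDE9A, an enzyme of high affinity for cyclic GMP, at -0.73 ± 0.36 (SE, adjusted p = 0.323), followed by PDE10A, which hydrolyses both cyclic nucleotides, at 0.44 (adjusted p = 0.426). The median of the 7 was -0.31, beside 0.01 over all 15336 genes.

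The kinases were scarce. PRKG2 (chromosome 4), the membrane-bound cyclic GMP-dependent kinase, had 19 and 11 counts in control and 7 and 9 in the knockdown-labelled libraries. It passed the filter on low counts through the control libraries alone, so a lower value in the other group is partly set by the filter. The groups did not overlap at 0.929 and 0.507 against 0.308 and 0.339 CPM, and the log2 fold change of -1.13 ± 0.59 (SE) had a 95% interval of -2.44 to 0.19 (adjusted p = 0.355, edgeR). With PRKG1 at 0 to 2 counts, neither kinase reached 1 CPM in any library.

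Per kilobase, the order of the control means was PDE6D, NPR2, NPR3, NPPC, PDE5A, NPR1, PRKG2, PDE6A, PRKG1 and NPPB. Neighbours whose control libraries overlapped were NPR3 and NPPC, PDE5A and NPR1, PRKG2 and PDE6A, and PRKG1 and NPPB. In the knockdown-labelled libraries PDE6A moved from the 8th to the 5th place, and the first 4 places were held by the genes that held them in control.

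Among all tested genes, 0.28% were called higher in edgeR's test; NPR3 and PDE6A were picked for their rise, so they are not counted against that share. Of the other 6 tested members, 0 passed, against 0.646% of all tested genes in either direction, and 1, NPPC, had an unadjusted p under 0.05, against 17.7% of all. DESeq2 called 0 of these 6 as well, but gave no adjusted p to NPR1, NPPC and PRKG2. Among these 6, the groups did not overlap for NPPC, which was higher (as were 25.8% of all tested genes without overlap), and for PDE5A and PRKG2, which were lower (23.4% of all). That is 3 of 6, or 50.0%, near the 49.2% of all tested genes in either direction, so the share of members that stood apart was near the background. PRKG2 is in this count although it passed the filter through the control libraries alone, which partly sets its lower value.

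The wider pathway was described with 9 lists of 80 genes in all, which hold the 10 members. Of the 80, 50 were tested. Besides NPR3 and PDE6A, 48 were, and 0 of these passed an adjusted p of 0.05 in edgeR's test, against 0.646% of all. An unadjusted p under 0.05 was found for 8 of the 48 (16.7%), 6 higher and 2 lower, against 17.7% of all tested genes. GUCA1B, among the 6 higher, passed the filter on low counts through the knockdown-labelled libraries alone. Its direction is thus partly set by the filter, and nothing is read from it. Their median log2 fold change was -0.06, beside 0.01 over all genes. Leaving out control replicate 1 or control replicate 2 raised the number called to 9 (18.0%) and 10 (19.6%), where 29.5% and 20.6% of all tested genes were called. Leaving out replicate 1 or 2 of the knockdown-labelled libraries gave 0 calls among them, where 0.713% and 0.352% of all were called. With no filter on low counts 2 of 69 were called, GNAI2 and NPPC, beside 4.14% of all, and with library totals alone 1 of 48, UNC119B, beside 2.89%. DESeq2 called 3.78% of all tested genes, the filter of 5 CPM 1.06% and the fit with replicate number as a block 6.46%, each with 0 of these pathway genes.

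**Figure D4:**
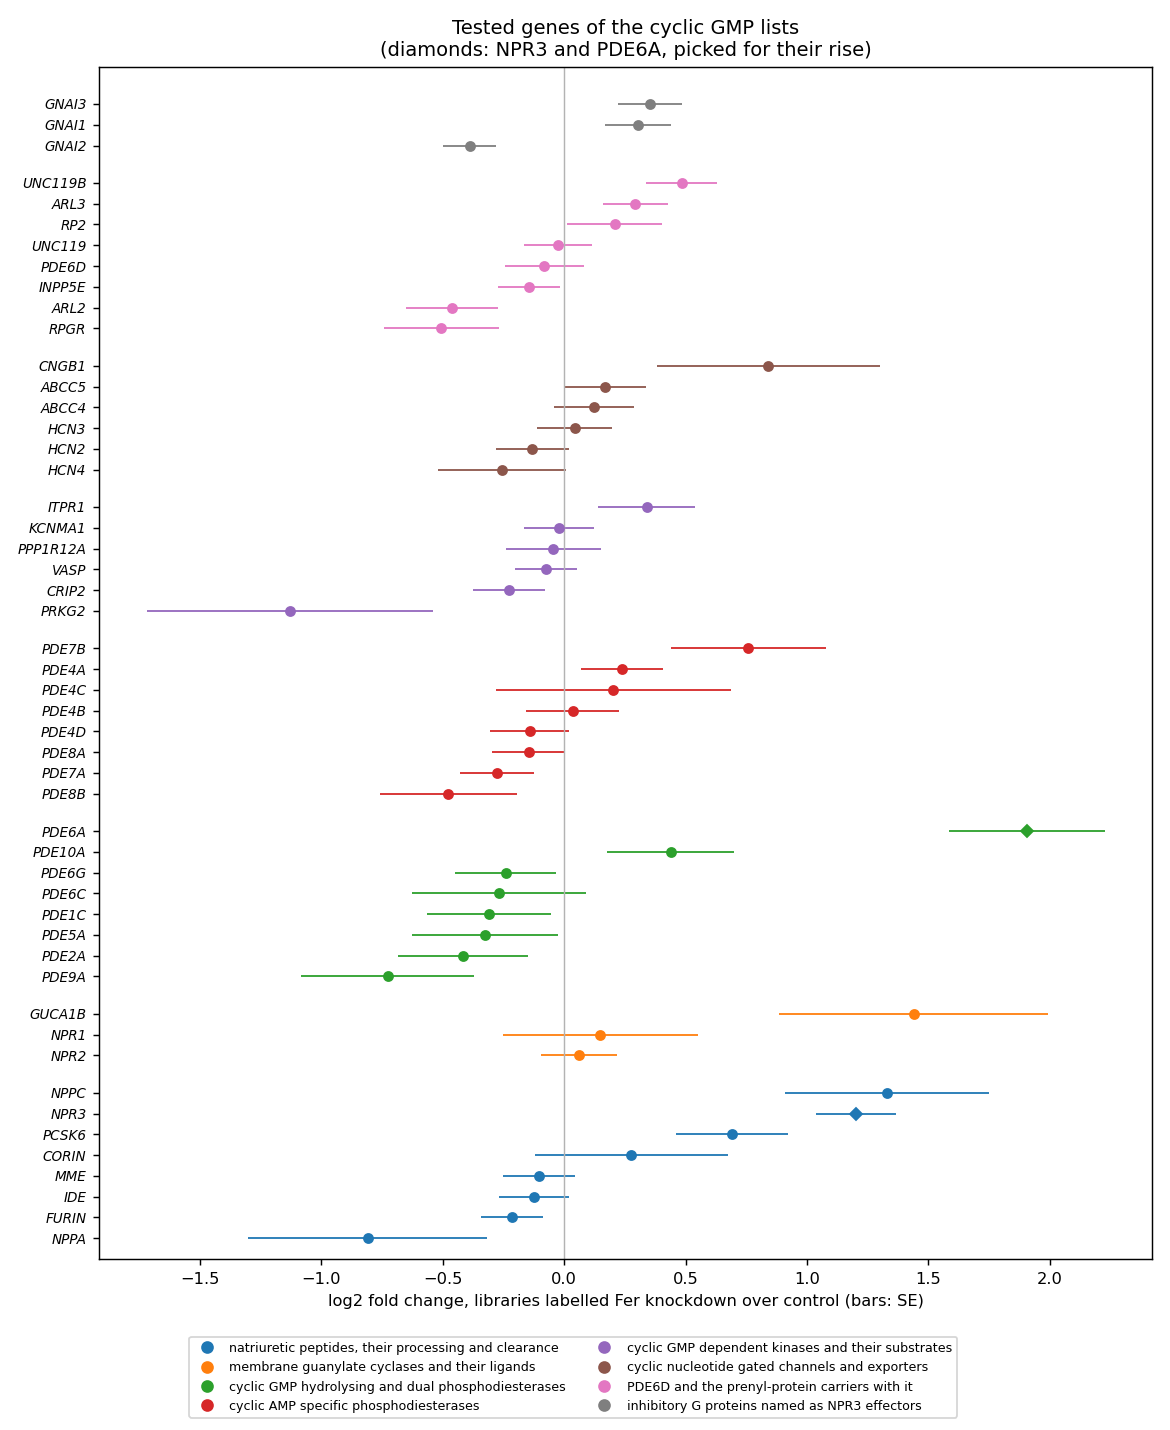
Log2 fold changes (x axis, knockdown-labelled libraries over control) of the 50 tested pathway genes are shown with their standard errors, grouped and coloured by list, with diamonds for NPR3 and PDE6A. Apart from these 2 genes, the largest values are those of GUCA1B and NPPC on the higher side and PRKG2 on the lower, each with a wide error. GUCA1B passed the filter on low counts through the knockdown-labelled libraries alone, and PRKG2 through the control libraries alone.

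Genes that make or remove the peptides gave 0 calls among 7 tested besides NPR3, with 2 at an unadjusted p under 0.05. Over all tested genes, 0.646% were called and 17.7% had such an unadjusted p. PCSK6, a proprotein convertase that activates the peptide-processing enzyme corin, was at 3.23 and 3.97 CPM in control and 5.94 and 5.69 CPM in the knockdown-labelled libraries and so at 0.69 ± 0.23 on the log2 scale (SE, adjusted p = 0.168, edgeR), with 19.96% exon overlap. FURIN, a related convertase, was at -0.21 (adjusted p = 0.413). MME, which encodes the peptide-degrading enzyme neprilysin, was at -0.10 ± 0.15 (SE, adjusted p = 0.772) and the insulin-degrading enzyme gene IDE at -0.12 (adjusted p = 0.712). Both enzymes were expressed at over 30 CPM in each library. CORIN had 24 to 46 counts per library and was at 0.28 (adjusted p = 0.768).

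Genes of the nitric oxide branch were too low to be tested. None of the 6, the synthases NOS1, NOS2 and NOS3 and the soluble guanylate cyclase subunits GUCY1A1, GUCY1A2 and GUCY1B1 had more than 10 counts in a library. The synthase genes had 1 to 10 counts in each library, and GUCY1B1 had 0 in all 4. Among the 9 genes of membrane guanylate cyclases, their ligands and their activators, NPR2, NPR1 and GUCA1B were tested. GUCA1B, which encodes a calcium-sensing activator of the retinal cyclases, had 5 and 9 counts in control and 18 and 27 in the knockdown-labelled libraries. It passed the filter through the latter alone, so a higher value there is partly set by the filter (log2 fold change 1.44, adjusted p = 0.219, edgeR). The intestinal cyclase gene GUCY2C and the retinal cyclase genes GUCY2D and GUCY2F had at most 3 counts in a library.

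Genes downstream of cyclic GMP gave 0 calls among the 12 tested genes of 2 lists (edgeR), with 0 at an unadjusted p under 0.05. The shares over all tested genes were 0.646% and 17.7%. VASP, an actin-regulating kinase substrate, was at 103 ± 9.15 CPM in control and 97.9 ± 4.74 CPM in the knockdown-labelled libraries (SD, n = 2 each), and the adjusted p was 0.814. ITPR1, the calcium release channel of internal stores, was at 0.34 (adjusted p = 0.415). CNGB1, the rod cyclic nucleotide-gated channel subunit, had 11 and 16 counts in control and 23 and 34 in the knockdown-labelled libraries and was at 0.84 ± 0.46 on the log2 scale (SE, adjusted p = 0.378). Its partner CNGA1 had at most 4 counts in a library. The pacemaker channel gene HCN4 was at -0.26 (adjusted p = 0.663), and ABCC4 and ABCC5, which export cyclic nucleotides, were at 0.12 and 0.17 (adjusted p = 0.747 and 0.651).

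Of the inhibitory G protein genes, GNAI2 had the smallest p of all 48 pathway genes and still missed the threshold. It was at 730 and 703 CPM in control and 545 and 549 CPM in the knockdown-labelled libraries and so at -0.39 ± 0.11 on the log2 scale (SE, adjusted p = 0.116, edgeR). GNAI3 and GNAI1 were at 0.35 and 0.30 (adjusted p = 0.207 and 0.282), opposite in sign to GNAI2, and exons of other genes overlap 7.88% of GNAI3. The groups did not overlap in these 3 genes, nor did they in 49.2% of all tested genes. Among the 8 prenyl-protein carriers and their partners with PDE6D, 0 passed and 2 had an unadjusted p under 0.05. These shares were 0.646% and 17.7% over all tested genes. UNC119B, which carries acylated proteins, was at 0.48 ± 0.14 (SE, adjusted p = 0.136, 12.4% exon overlap), and ARL2, a small GTPase that releases cargo from PDE6D, was at -0.46 (adjusted p = 0.242, 17.5% exon overlap). ARL3, which acts likewise in cilia, was at 0.29 (adjusted p = 0.292).

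The phosphodiesterases specific for cyclic AMP were all tested, 8 of 8. They gave 0 calls (edgeR), beside 0.646% of all tested genes, and 1 unadjusted p under 0.05, beside 17.7%. That gene, PDE7B, was at 1.42 and 1.43 CPM in control and 2.38 and 2.45 CPM in the knockdown-labelled libraries and so at 0.76 ± 0.32 on the log2 scale (SE, adjusted p = 0.252, 7.60% exon overlap). PDE7A, of the same family, was at -0.28 (adjusted p = 0.381). PDE8A had the highest control level of these per kilobase, at 6.47, and was at -0.15 (adjusted p = 0.664).

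Genes with the most similar pattern were found among 12521 genes with a mean of at least 2 CPM, by the distance between centred log2 CPM values over the 4 libraries. A pattern over 4 libraries that fall into 2 groups is shared by many genes. For NPR3 these were the ribosomal protein pseudogene RPS7P10, the DNA repair gene MGMT and the myeloid receptor gene TREM2, at distances of 0.0957, 0.0982 and 0.127. TREM2 was at 5.58 and 4.70 CPM in control and 10.8 and 11.2 CPM in the knockdown-labelled libraries. For PDE6A they were the small nucleolar RNA host gene SNHG8, the Notch pathway gene DTX1 and the mitochondrial protease gene PARL, at distances of 0.318, 0.320 and 0.410. DTX1 was at 1.32 and 1.61 CPM in control and 4.23 and 5.08 CPM in the knockdown-labelled libraries. Reads of RPS7P10 may come from its parent gene, and 47.7% of the exonic bases of PARL and 14.2% of those of SNHG8 overlap other genes.

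Markers of other cell types in which the pathway is well known gave 0 calls in edgeR's test, beside 0.646% of all tested genes. The 7 cardiac muscle markers summed to 2.01 to 2.58 CPM in control and 1.32 to 2.33 CPM in the knockdown-labelled libraries. The 6 endothelial markers with a row summed to 2.63 to 3.67 CPM against 2.77 to 2.97 CPM, and EMCN was at 0 in all 4. The 8 smooth muscle markers summed to 219 to 236 CPM in control and 172 to 180 CPM in the knockdown-labelled libraries, most of it from SMTN and ACTA2. These were the only 2 of 7 tested with an unadjusted p under 0.05 (edgeR), beside 17.7% of all tested genes. The part of all these cell type markers in the values of NPR3 and PDE6A was not tested.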

How the data were processed

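Unnormalized read counts per gene were deposited by the authors, beside symbols and gene lengths (per the file headers). The submitters' processing notes name the tools HISAT2, featureCounts and DESeq2 and the builds hg19 and mm10, with no role or version. Strand setting and annotation release were not given in the sources used here. Gene lengths in bases (another unit than the counts) came from the deposited table. A column name, that for Fer knockdown replicate 1, is abbreviated; it was matched through its number. Of 39635 rows, 1 had no values.

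The test was edgeR 4.0.16 (R 4.3.3, filterByExpr, TMM, quasi-likelihood test), without a replicate block. The design left 2 residual degrees of freedom. Intervals and p-values also drew on variance shared over the tested genes, so they rest on more than these 2. Steps were tested on simulated data with a single fixed spread. Changes were planted only in genes above 2 on the log2 CPM scale, a level that NPR1, NPPC, PDE5A, PDE6A and PRKG2 did not reach. The simulation does not cover these genes. Replicates differed by more than counting noise (chi-square per degree of freedom of 28.9 in control and 5.35 in the other group). The same-numbered libraries did not deviate together (r = 0.04 over genes). SE values were derived by dividing the fold change by the root of the F statistic. Distances used log2 CPM with a prior count of 2. Exon overlaps and neighbours came from GENCODE release 29 on GRCh38, which holds all 10 identifiers. GRCh38 is another build than hg19, so gene coordinates are not given. Overlap shares refer to the gene models of that release, which can differ from those counted. GNAI3, for example, has 27174 exonic bases there and a deposited length of 9044.

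Members, lists and tests were chosen with earlier results of these data known. Named were all 10 members, FER, the pathway genes of smallest p per list (up to 2, or those past the threshold), the neighbours of NPR3 and PDE6A and the 3 genes most like each; other genes were named after their values were seen. DESeq2 1.42.0 and other scalings, filters and sets of libraries were alternatives.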

Additional observations from a re-analysis of the deposited data

How the results depend on the processing

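NPR3 stayed at 1.10 to 1.27 on the log2 scale with each library left out and was at 1.37 with library totals alone. PDE6A stayed at 1.77 to 2.02 with each library left out and was at 2.07 with library totals alone, a scaling that moved the median of all genes from 0.01 to 0.18. Without mitochondrial genes, an alternative chosen after seeing the data, the values were 1.19 and 1.90. NPPC ran from 1.05 to 1.62 with each library left out, and with no filter it was at 1.33 and called. The values near 0 changed sign. NPR1 ran from -0.016 to 0.31 with each library left out, NPR2 from -0.087 to 0.19 and PDE6D from -0.27 to 0.10, and PDE6D was at 0.083 with library totals alone. PDE5A and PRKG2 kept their sign, without a call, in all 11 alternatives that could fit them.

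Of all genes, 43 were called higher and 56 lower. These counts were 249 and 331 in DESeq2, 396 higher with library totals alone, 526 and 467 with no filter, and 81 and 111 with upper-quartile factors, with 35 lower without mitochondrial genes. With a library left out they ran from 31 to 2344 and from 25 to 2390. With the replicate number as a block, 537 and 453 genes were called, and the block changed no call among the pathway genes; the shared numbers are not known to pair the libraries. The number of pathway genes called higher includes NPR3 and PDE6A, which were picked for their rise, so nothing is read from it; it was 2 at first, 1 with the filter of 5 CPM, which removed PDE6A, and 1 to 8 with a library left out. Lower calls, 0 at first, were 1 with no filter and 0 to 5 with a library left out. Besides NPR3 and PDE6A, 0 were called higher at first, 1 with library totals alone (UNC119B), 1 with no filter (NPPC) and 0 to 6 with a library left out. Their lower calls were 1 with no filter (GNAI2) and 0 to 5 with a library left out. The causes were not tested. A group left with 1 library was assumed to vary like the other. NPR1, NPPC and PRKG2, with 7 to 48 counts per library, are limited by depth.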
